A study of Mus musculus with 4 samples.

Results

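The genes described here are the integrin subunits, the laminin chains, fibronectin and the ICAM and VCAM adhesion molecules of the mouse. They were taken by gene symbol (Itga, Itgb, Lama, Lamb, Lamc, Fn1, Icam and Vcam1) among the protein-coding genes of GENCODE M21 on mm10, and 43 of the 55421 genes listed in the files met this rule. They comprised 8 integrin β subunits, 5 laminin α chains, 3 laminin β chains, 3 laminin γ chains, Fn1, 5 ICAM and VCAM genes, and integrin α subunits that bind collagen (4 genes), laminin (3 genes), ligands with the RGD motif (4 genes), fibronectin and VCAM1 through the related α4 and α9 subunits (2 genes) or the ligands of leukocyte integrins (5 genes).

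RNA was measured in cultures of prefrontal cortex (PFC) from wild-type (WT) C57BL/6 mice at postnatal day 0 (P0). The tissue was freed of meninges and vessels, dissociated with papain and grown for 10 days in a neurobasal medium with B27, either with fibroblast growth factor 2 (FGF2) at 5 ng/mL or without FGF2. Each condition had 2 total RNA libraries, and the comparison asks what FGF2 changed in these mouse cultures. The paper's bulk RNA-seq methods give biological replicates for some human samples and technical replicates for the others, without naming the mouse libraries. Whether the libraries of a condition came from separate cultures is thus not known, and they may be technical replicates. The p-values therefore measure the spread between these libraries, which may be technical only.

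Integrins are receptors made of 1 α and 1 β subunit that join the cytoskeleton to the matrix or to other cells. Laminins are trimers of an α, a β and a γ chain that build basement membranes, which in the cortex lie under the pia and around vessels, and fibronectin is a matrix glycoprotein read by several integrins. ICAM1 and VCAM1 are immunoglobulin-family surface proteins that bind integrins of other cells and are known for their induction by inflammatory cytokines, while ICAM5 (telencephalin) is a dendritic adhesion molecule of forebrain excitatory neurons.

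The counts on genes totalled 9166432 to 10799886 per library, and 24349 to 24932 genes had at least 1 count. Levels are given as CPM, the counts scaled to a common library total with TMM factors, and 3 counts corresponded to 0.278 to 0.327 CPM before that scaling. The cortical origin of the cultures was checked on the projection neuron markers Tbr1, Emx1, Neurod6 and Slc17a7, none of which was at 0. Tbr1 measured 21.9 and 20.5 CPM with FGF2 and 44.0 and 44.8 CPM without FGF2 and was lower in the test described next, while Emx1 (2.86 to 5.89 CPM over the 4 libraries), Neurod6 (27.0 to 33.6 CPM) and Slc17a7 (45.1 to 47.9 CPM) did not pass it. Other cell types moved between the conditions. The summed level of 8 astrocyte markers was 12310 to 12427 CPM with FGF2 and 7477 to 7527 CPM without FGF2, and 7 of the 8 were higher in that test. Summed levels of 8 oligodendrocyte lineage markers were 1508 to 1530 CPM with FGF2 and 477 to 492 CPM without FGF2, with 7 of the 7 tested higher. Against this, 8 neuron markers summed to 3334 to 3478 CPM with FGF2 and 4902 to 4925 CPM without FGF2, with 7 lower and 1 higher. The 7 neural progenitor markers summed to 1940.4 to 1947 CPM with FGF2 and 1051 to 1081 CPM without FGF2. Most of that sum was Vim alone, at 1576 and 1566 CPM with FGF2 and 662 and 681 CPM without FGF2. Vim, Pax6 and Sox2 were higher and Nes and Top2a lower, and the median log2 fold change of the list was -0.10. Over all genes, 20.7% were higher and 19.9% lower in that test. In bulk RNA, a change in the number of cells of a type and a change in RNA per cell cannot be told apart, and the part of these shifts in the results that follow was not tested.

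FGF2 cultures held more RNA of most of the adhesion genes that were well measured. By the quasi-likelihood test of edgeR with Benjamini-Hochberg adjustment over 17144 genes, 18 of the 34 genes of the group that were tested were higher with FGF2 and 5 were lower, at an adjusted p under 0.05. Of all genes tested, 20.7% were higher and 19.9% were lower. The shares within the group were 52.9% and 14.7%. Its median log2 fold change was 0.56, with a range of -1.32 to 3.26, beside a median of -0.00076 over all genes tested. In 28 of the 34 genes the libraries of the conditions did not overlap, in either direction, which includes all 23 that passed the test. The share over all genes to set beside this is the sum of both directions. Both FGF2 libraries lay above both others in 33.6% of all genes tested and below them in 33.4%. Among the 25 genes with a mean of at least 5 CPM, 16 were higher and 5 lower with a median of 0.61, against 23.9% higher, 24.3% lower and a median of -0.0076 over the 12645 genes of that level. The filter on low counts removed 9 genes of the group, and 31 of the 34 tested passed it in all 4 libraries. Itgb7 passed it only through the FGF2 libraries and Lamb3 only through the libraries without FGF2, so that these had to differ in that direction to be tested. Itgb2 passed it in both FGF2 libraries and in 1 library without FGF2.

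**Figure D1:**
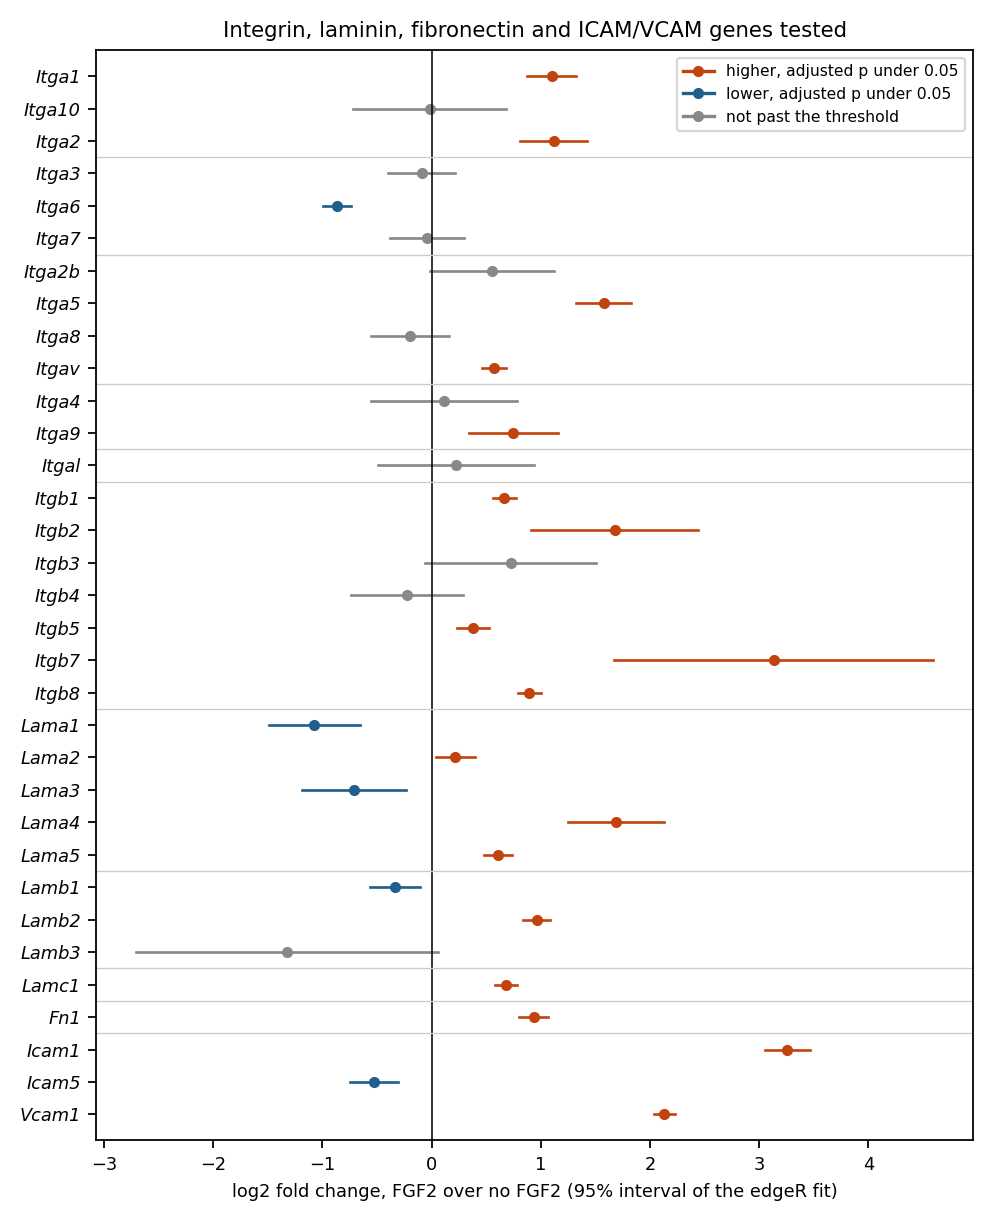
Log2 fold change (FGF2 over no FGF2, horizontal axis) of the genes tested that are reported here, grouped by role from integrin α subunits at the top to ICAM and VCAM genes at the bottom. Points are estimates of the edgeR fit, lines are 95% intervals and colours give the call at an adjusted p under 0.05. Icam1 at 3.26 and Vcam1 at 2.13 lie far to the right with short intervals, while Icam5, Itga6, Lama1, Lama3 and Lamb1 lie left of 0.

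Icam1 and Vcam1 had the largest rises among the genes of the group with a mean of at least 5 CPM. Icam1, an endothelial, glial and leukocyte ligand of the β2 integrins, rose 9.57-fold, Vcam1, a ligand of integrin α4β1, rose 4.38-fold, and Icam5 fell. Icam1, Icam4 and Icam5 lie side by side on the plus strand of chromosome 9 within 23052 bases (Icam1 at 21015985 to 21028817, Icam4 at 21029373 to 21030595 and Icam5 at 21032073 to 21039036, mm10), with gaps of 555 and 1477 bases between them. Icam1 and Icam5, the pair of this cluster that moved in opposite directions, are shown by the 250 bases before their RefSeq starts (GRCm38.p6, the assembly of mm10), at chr9:21015690-21015939 and chr9:21031788-21032037, both on the plus strand. Capitals mark matches to the motifs named after the sequences.
Icam1: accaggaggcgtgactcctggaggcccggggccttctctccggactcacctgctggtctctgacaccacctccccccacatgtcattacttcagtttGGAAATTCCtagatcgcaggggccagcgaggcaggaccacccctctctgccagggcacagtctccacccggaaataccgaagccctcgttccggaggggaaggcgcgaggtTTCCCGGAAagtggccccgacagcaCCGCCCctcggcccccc
Icam5: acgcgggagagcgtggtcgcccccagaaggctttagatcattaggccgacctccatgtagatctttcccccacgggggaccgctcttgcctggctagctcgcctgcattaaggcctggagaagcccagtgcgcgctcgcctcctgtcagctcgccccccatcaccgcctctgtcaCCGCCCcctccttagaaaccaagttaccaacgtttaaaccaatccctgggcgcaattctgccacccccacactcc
A table of RefSeq promoters held 26 of the 43 genes, and 6 motifs were searched on both strands of these 250 bases. Vcam1, Fn1 and Itga6 were among the genes with no entry, so their promoters were not searched. The κB core GGAANTTCC was found in Icam1 at positions -153 to -145, counted back from the start, in none of the other 25 genes, and in 0.813% of 32851 promoters. Icam1 also held TTCNNNGAA, the STAT palindrome, at -42 to -34, a motif found in 7.02% of promoters. The GC box GGGCGG stood on the minus strand at -17 to -12 in Icam1 and at -75 to -70 in Icam5, and in 32.7% of promoters. No match to TATAAA (12.4% of promoters), TGANTCA of AP-1 (6.75%) or CCGGAAGT of ETS factors (2.88%) was found in either window. These matches describe letters and not binding, and none of the marked matches overlap each other. GC content was 65.2% for Icam1 and 61.6% for Icam5, beside a median of 52.4% over all promoters.

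Icam1 measured 103 and 100.4 CPM in the FGF2 libraries and 11.6 and 9.67 CPM in the libraries without FGF2. The conditions lay far apart, with a mean of 102 ± 1.84 CPM against 10.6 ± 1.35 CPM (SD, n = 2 libraries each, as for all values given with ±). The log2 fold change was 3.26 ± 0.10 (SE; edgeR adjusted p = 4.8e-212). Vcam1 (chromosome 3, 116109949 to 116129688, minus strand) measured 365 and 378 CPM with FGF2 and 85.6 and 84.0 CPM without FGF2. Its libraries agreed closely within each condition, with a mean of 372 ± 8.82 CPM against 84.8 ± 1.14 CPM. Its log2 fold change was 2.13 ± 0.05 (SE), with an edgeR adjusted p too small to be stored and a DESeq2 adjusted p of 2.1e-210. Icam5 measured 23.2 and 25.8 CPM with FGF2 and 37.4 and 33.3 CPM without FGF2, a fall of 1.44-fold in which every FGF2 library lay below the others (log2 fold change -0.53 ± 0.11 SE, edgeR adjusted p = 2.0e-05).

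The balance within the ICAM and VCAM genes therefore differed between the conditions. On the scale of CPM per kb of exon, which allows genes of different length to be compared, the level of Icam1 was 3.00 and 2.63 times that of Icam5 in the FGF2 libraries and 0.209 and 0.197 times in the libraries without FGF2, so the order of the pair was turned. The level of Vcam1 exceeded that of Icam1 in every library, by 1.74 and 1.85 times with FGF2 and by 3.63 and 4.27 times without FGF2. With 2 libraries in each condition an exact permutation test cannot give a two-sided p under 0.333, so no test was run on these ratios or on the shares below. Icam4, an erythroid adhesion molecule, had 3 and 4 counts in the FGF2 libraries against 1 and 2 in the others, and Icam2, an endothelial and leukocyte molecule, had 1 count in 1 library without FGF2 and 0 counts in the others. Neither passed the filter. The antisense gene Gm47079, with 6 to 16 counts per library, covers all exons of Icam4 and 11.7% of those of Icam1, and with Gm26592 it covers 30.8% of those of Icam5. Short stretches of 100 to 107 bases of Vcam1 recur in 5 other genes.

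Markers of cells known to carry ICAM1 and VCAM1 were read beside these results. Of 10 endothelial markers, Cldn5 and Tie1 were at 0 in every library, and Cdh5 and Emcn had at most 3 counts in each. The list summed to 12.9 to 14.5 CPM with FGF2 and 7.69 to 12.1 CPM without FGF2. Of 4 tested, 2 were higher and 1 lower, where 20.7% and 19.9% of all genes were. Flt1, among the higher, passed the filter only through the FGF2 libraries and so had to differ in that direction to be tested. The 10 markers of microglia and macrophages summed to 20.4 to 23.7 CPM with FGF2 and 9.59 to 11.1 CPM without FGF2. None was at 0 in every library, but Aif1, P2ry12 and Tmem119 had at most 7 counts in any library and were not tested. Of the 7 markers of this list that were tested, 4 were higher (57.1%, beside 20.7% of all genes). Among these was Ptprc, which passed the filter only through the FGF2 libraries. The 11 mural and fibroblast markers summed to 67.3 to 71.7 CPM with FGF2 and 60.1 to 60.2 CPM without FGF2. Of 8 tested, 2 were higher (25.0%, near the 20.7% of all genes) and 3 lower (37.5%, beside 19.9%). Astrocyte markers, given above, were far more abundant than these lists, and 7 of 8 were higher with FGF2. The part of astrocytes and of the other cells in the levels of Icam1 and Vcam1 was not tested.

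**Figure D2:**
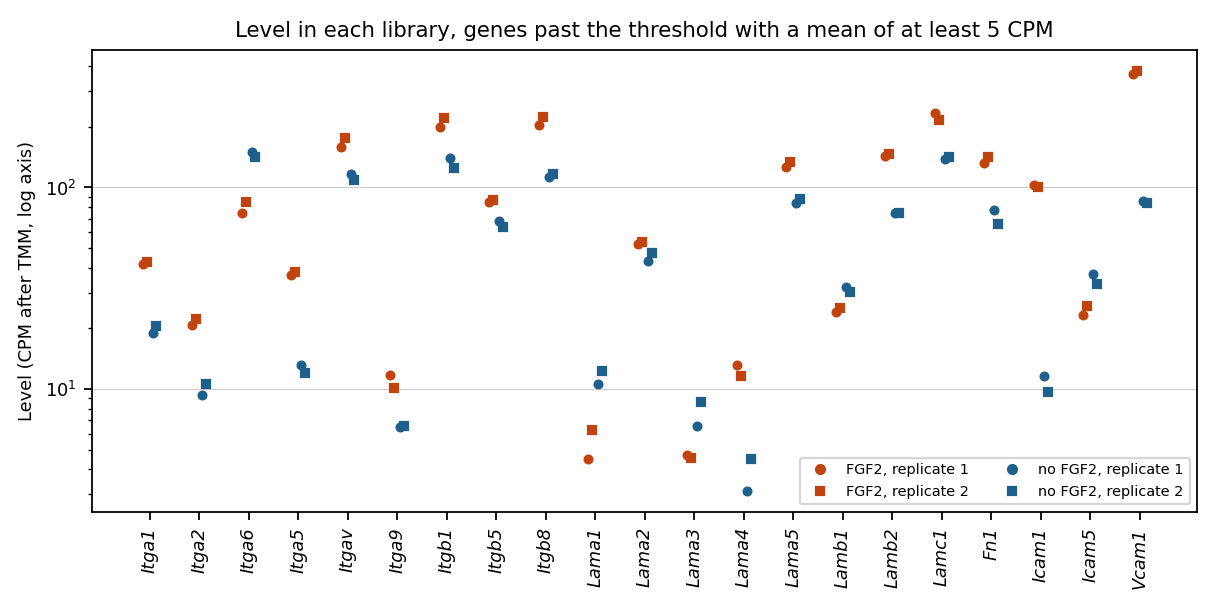
Level in each of the 4 libraries (CPM after TMM scaling, log axis) of the 21 genes that passed the test and had a mean of at least 5 CPM, with circles for replicate 1 and squares for replicate 2. Libraries with FGF2 (orange) and without FGF2 (blue) are apart in every gene, by the least in Lama2 (52.2 and 53.5 against 43.4 and 47.5 CPM) and by the most in Icam1 (103 and 100.4 against 11.6 and 9.67 CPM).

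Among integrin α subunits, the collagen receptors Itga1 and Itga2, the fibronectin receptor Itga5, the broad RGD receptor Itgav and Itga9 rose with FGF2, and the laminin receptor Itga6 fell. Of 13 α subunits tested, 5 were higher (38.5%, beside 20.7% of all genes) and 1 lower (7.69%, beside 19.9%), with a median log2 fold change of 0.22. Itga5, the partner of β1 in the main fibronectin receptor, measured 36.7 and 38.2 CPM with FGF2 and 13.1 and 12.1 CPM without FGF2. This was a rise of 2.98-fold, with a log2 fold change of 1.57 ± 0.13 (SE; edgeR adjusted p = 1.2e-32). Itgav, which pairs with β1, β3, β5, β6 and β8, measured 159.6 and 176 CPM with FGF2 and 117 and 109 CPM without FGF2 (log2 fold change 0.57 ± 0.06 SE, edgeR adjusted p = 7.0e-22). Of the other RGD-binding subunits, Itga8 (log2 fold change -0.20, 95% interval -0.56 to 0.16) and the platelet subunit Itga2b (0.55, -0.02 to 1.12) did not pass the test, although their libraries did not overlap.

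Itga1 and Itga2, which both pair with β1 to bind collagen and are neighbours on chromosome 13 (Itga1 at 114953096 to 115101964 and Itga2 at 114833081 to 114932100, minus strand), rose by close to the same factor. Itga1 measured 41.8 and 42.7 CPM with FGF2 and 18.9 and 20.4 CPM without FGF2, which was 2.15-fold higher (log2 fold change 1.10 ± 0.11 SE, edgeR adjusted p = 1.3e-20). Itga2 measured 20.9 and 22.3 CPM with FGF2 and 9.30 and 10.6 CPM without FGF2, which was 2.17-fold higher (log2 fold change 1.12 ± 0.16 SE, edgeR adjusted p = 7.6e-12). The third collagen receptor tested, Itga10, had a log2 fold change of -0.02 with an interval of -0.72 to 0.68, and 33.5% of its exons are shared with Gm42957 on the same strand. Itga11 had 2 to 8 counts per library and was not tested.

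Of the 3 laminin-binding α subunits, 1 was lower with FGF2 and the others did not pass the test. Itga6, the laminin-binding partner of β1 and β4 and a surface marker of neural stem cells, measured 74.9 and 84.8 CPM with FGF2 and 151 and 141 CPM without FGF2. It was 1.83-fold lower with FGF2, with means of 79.8 ± 7.02 and 146 ± 6.80 CPM and a log2 fold change of -0.87 ± 0.06 (SE; edgeR adjusted p = 2.6e-40). A stretch of 326 bases of Itga6 is also found in Gm29397, which had 3 to 13 counts. Itga3 (log2 fold change -0.09, 95% interval -0.40 to 0.21) and Itga7 (-0.04, -0.38 to 0.30), the other laminin-binding α subunits, did not pass the test and their libraries overlapped.

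Itga9, a receptor of tenascin C and VCAM1, measured 11.8 and 10.1 CPM with FGF2 and 6.46 and 6.54 CPM without FGF2 (log2 fold change 0.75 ± 0.21 SE, edgeR adjusted p = 0.0012). The call was lost with DESeq2, at an adjusted p of 0.071. Itga4, the α subunit of the main VCAM1 receptor, was low at 3.37 ± 1.61 CPM with FGF2 and 3.08 ± 0.0667 CPM without FGF2, and its log2 fold change of 0.11 (95% interval -0.55 to 0.78) did not pass the test. Of the leukocyte subunits, Itgal, the ICAM1-binding partner of β2, had 23 to 34 counts per library and a log2 fold change of 0.22 (95% interval -0.49 to 0.93). Itgam, the CD11b subunit of microglia, had 2 and 9 counts in the FGF2 libraries against 3 and 2, and 68.7% of its exons are shared with Gm49368 on the same strand. Itgad, Itgae and Itgax had at most 5 counts in any library, so a difference in these and in Itgam was not detectable at this depth.

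Of 4 β subunits with a mean of at least 5 CPM, Itgb1, Itgb5 and Itgb8 were higher with FGF2 and Itgb4 did not pass the test. Their median log2 fold change was 0.52. Of all genes of that level, 23.9% were higher and 24.3% lower, with a median of -0.0076. The other 2 that were higher, Itgb2 and Itgb7, are low, and Itgb7 owes its test to the FGF2 libraries alone. Itgb1, the partner of most α subunits above, measured 199 and 221 CPM with FGF2 and 140.1 and 125 CPM without FGF2, which was 1.59-fold higher (log2 fold change 0.67 ± 0.05 SE, edgeR adjusted p = 1.8e-34). Itgb8, which with αv activates latent TGF-β and is known from astrocytes and radial glia, measured 203 and 225 CPM with FGF2 and 113 and 117 CPM without FGF2. It was 1.86-fold higher, with a log2 fold change of 0.90 ± 0.05 (SE; edgeR adjusted p = 3.5e-59). Itgb5, the vitronectin-binding partner of αv, measured 84.7 and 86.5 CPM with FGF2 and 68.0 and 64.0 CPM without FGF2 (log2 fold change 0.38 ± 0.07 SE, edgeR adjusted p = 3.1e-06). A stretch of 343 bases of Itgb5 recurs in Gm38317, which had 0 to 5 counts. The summed levels of 8 astrocyte markers, given above, were also higher with FGF2, and their part in the level of Itgb8 was not tested.

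The leukocyte β subunit Itgb2 was higher with FGF2 at low counts. Itgb7, the other, passed the filter only through the FGF2 libraries and so had to differ in that direction to be tested. The adjusted p of Itgb7 is therefore no evidence of a rise. Itgb2, the common β subunit of the receptors of ICAM1, had 32 and 51 counts in the FGF2 libraries against 10 and 19 (log2 fold change 1.68 ± 0.39 SE, edgeR adjusted p = 8.4e-05). Itgb7, a lymphocyte subunit, had 13 and 20 counts in the FGF2 libraries against 1 and 3, a ratio of summed and depth-scaled counts of 9.31 with a 95% counting interval of 3.31 to 36.2 (edgeR adjusted p = 0.00013). Its fitted log2 fold change rests on few counts and was 3.13 with all libraries and 2.59 to 4.02 with 1 library left out. Interval and floor values cover counting error only. Of the microglia and macrophage markers, Csf1r (log2 fold change 1.43), Cx3cr1 (1.19) and C1qb (0.84) were also higher, at low counts. Ptprc (2.07) was higher too, but passed the filter only through the FGF2 libraries and so had to differ in that direction to be tested. C1qa, Tyrobp and Trem2 did not pass the test. The part of such cells was not tested. Itgb3 (log2 fold change 0.72, 95% interval -0.06 to 1.5) and Itgb4 (-0.23, -0.74 to 0.28), the partner of α6 in hemidesmosomes, did not pass the test, and Itgb6, an epithelial subunit, had 1 count in 1 library and 0 in the others.

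The make-up of the receptor transcripts differed between the conditions. The CPM per kb of exon summed over all α subunits was 46.7 ± 1.84 with FGF2 and 40.4 ± 1.22 without FGF2, a ratio of 1.15, and that of the β subunits was 98.1 ± 6.01 and 63.1 ± 2.82, a ratio of 1.56. Itga6 made up 18.3% and 19.6% of the summed α level in the FGF2 libraries and 40.5% and 39.5% in the others. The share of Itgav was 33.4% ± 0.988 with FGF2 and 26.0% ± 0.531 without FGF2, so that the most abundant α transcript was Itgav with FGF2 and Itga6 without FGF2. The level of Itga5 was 0.897 and 0.825 times that of Itga6 with FGF2 and 0.159 and 0.156 times without FGF2. Among the β subunits the order Itgb1, Itgb5, Itgb8 held in every library. Itgb1 made up 52.4% ± 0.683 of the β level with FGF2 and 51.4% ± 1.93 without FGF2, which differ by less than the spread between libraries. The share of Itgb5 was 24.6% ± 1.15 with FGF2 and 29.4% ± 0.0691 without FGF2, and that of Itgb8 was 19.7% ± 0.179 and 16.5% ± 1.14, with no overlap between the conditions in either.

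**Figure D3:**
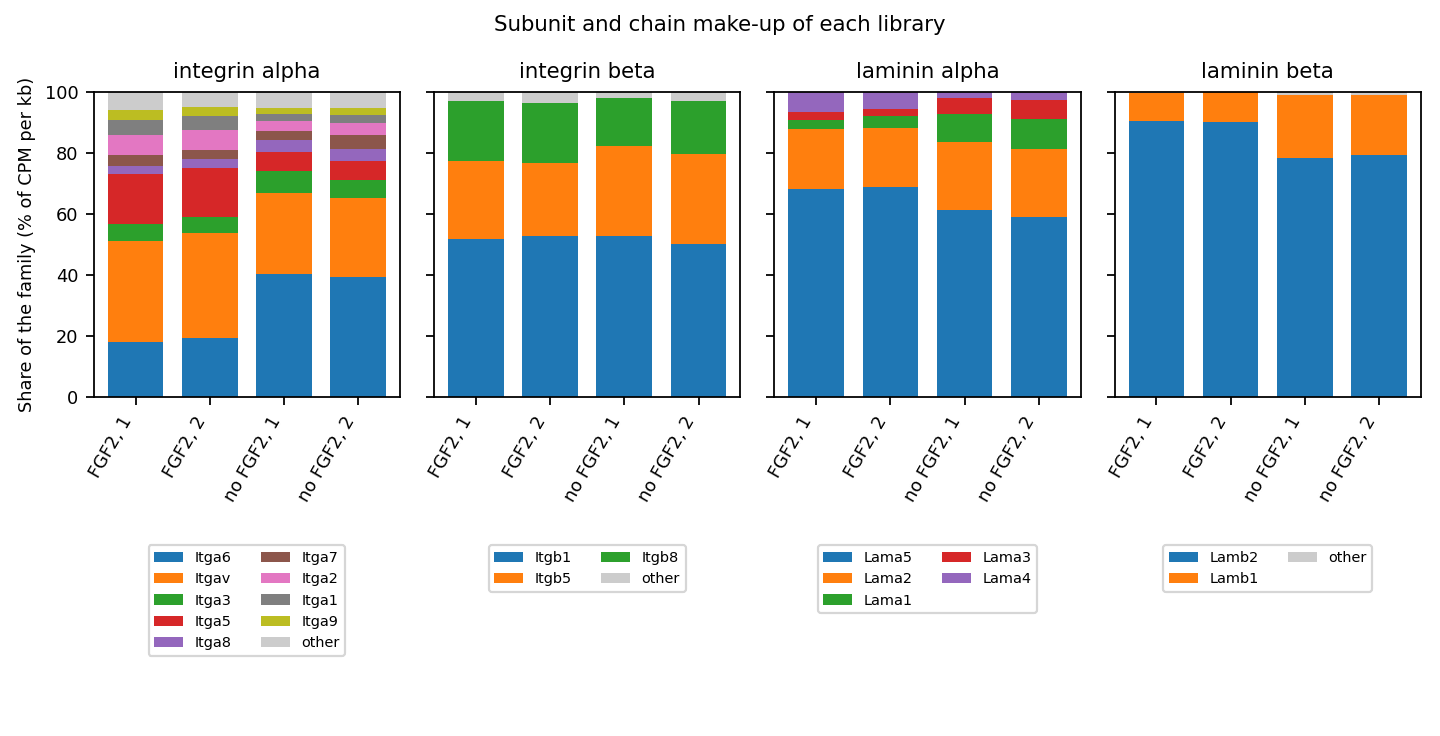
Share of each subunit or chain in the summed level of its family (% of CPM per kb of exon, vertical axis) in each of the 4 libraries, for integrin α, integrin β, laminin α and laminin β, with minor genes joined as other. The blue Itga6 segment covers 18.3% and 19.6% of the α level with FGF2 and 40.5% and 39.5% without FGF2, and the orange Lamb1 segment is smaller with FGF2, while Itgb1 stays close to the middle of the β bars.

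The laminin chains were of mixed direction, with 5 of 10 tested higher and 3 lower, beside 20.7% and 19.9% of all genes, and a median log2 fold change of 0.33. The γ chain Lamc1, the β chain Lamb2 and the α chains Lama5 and Lama4 rose, and Lama1, the α chain of early embryonic basement membrane, fell. The β chains Lamb2 and Lamb1 replace each other in laminin trimers and moved in opposite directions, so the 250 bases before their RefSeq starts are shown, at chr9:108479612-108479861 for Lamb2 and chr12:31265043-31265292 for Lamb1, both on the plus strand of GRCm38.p6 and with motif matches in capitals.
Lamb2: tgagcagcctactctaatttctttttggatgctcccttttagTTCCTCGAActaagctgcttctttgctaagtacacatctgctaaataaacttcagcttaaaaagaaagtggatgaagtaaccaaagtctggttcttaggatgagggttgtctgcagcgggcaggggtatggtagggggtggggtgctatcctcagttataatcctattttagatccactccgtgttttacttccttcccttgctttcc
Lamb1: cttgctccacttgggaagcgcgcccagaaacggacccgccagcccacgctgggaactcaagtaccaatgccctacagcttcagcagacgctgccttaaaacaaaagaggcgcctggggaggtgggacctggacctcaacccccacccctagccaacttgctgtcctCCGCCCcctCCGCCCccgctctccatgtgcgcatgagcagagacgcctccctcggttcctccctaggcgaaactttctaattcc
Lamb2 held the STAT palindrome TTCNNNGAA at -208 to -200 and no GC box, and Lamb1 held the GC box GGGCGG on the minus strand at -84 to -79 and at -75 to -70 and no STAT palindrome. The other 4 motifs had no match in either. GC content was 43.6% for Lamb2 and 62.0% for Lamb1. The GENCODE starts, 108479736 for Lamb2 and 31265234 for Lamb1, lie inside these windows, so part of each window is within the gene as counted.

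Lamb2 measured 143 and 147 CPM with FGF2 and 74.5 and 74.3 CPM without FGF2, which was 1.95-fold higher with the libraries of each condition close together (log2 fold change 0.96 ± 0.06 SE, edgeR adjusted p = 5.6e-48). Lamb1 measured 24.2 and 25.3 CPM with FGF2 and 32.0 and 30.4 CPM without FGF2 (log2 fold change -0.33 ± 0.12 SE, edgeR adjusted p = 0.012). This fall was small, and the call was lost with DESeq2 (adjusted p = 0.17), without FGF2 replicate 1 (log2 fold change -0.31, adjusted p = 0.060) and without no FGF2 replicate 1 (-0.30, adjusted p = 0.11). The level of Lamb2 per kb was 9.66 and 9.46 times that of Lamb1 with FGF2 and 3.8 and 3.99 times without FGF2. Lamb3, a chain of epithelial laminin, had 4 and 4 counts in the FGF2 libraries against 12 and 11 and did not pass the test (log2 fold change -1.32, 95% interval -2.71 to 0.06).

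Of the α chains, Lama5, a major chain of mature basement membranes, measured 127 and 134 CPM with FGF2 and 83.6 and 87.5 CPM without FGF2, which was 1.52-fold higher (log2 fold change 0.61 ± 0.06 SE, edgeR adjusted p = 8.0e-20). Lama4, a chain of vessel and mesenchymal laminins, measured 13.2 and 11.6 CPM with FGF2 and 3.13 and 4.51 CPM without FGF2, which was 3.22-fold higher (log2 fold change 1.69 ± 0.23 SE, edgeR adjusted p = 9.4e-13). Lama1 measured 4.51 and 6.29 CPM with FGF2 and 10.5 and 12.3 CPM without FGF2, which was 2.11-fold lower (log2 fold change -1.08 ± 0.21 SE, edgeR adjusted p = 2.9e-06). These α chains therefore differed in direction, with no overlap between the conditions in any of them.

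The other α chains had smaller and less stable changes. Lama2, the chain of muscle, vessel and glial laminins whose loss causes a muscular dystrophy, measured 52.2 and 53.5 CPM with FGF2 and 43.4 and 47.5 CPM without FGF2 (log2 fold change 0.22 ± 0.09 SE, edgeR adjusted p = 0.039). Its call was lost with DESeq2 (adjusted p = 0.29), upper quartile scaling (0.075), total count scaling (0.060) and no expression filter (0.052), and with any 1 library left out, where the log2 fold change was 0.15 without no FGF2 replicate 1, 0.28 without no FGF2 replicate 2, 0.20 without FGF2 replicate 2 and 0.23 without FGF2 replicate 1. Lama3, a chain of epithelial laminin, measured 4.73 and 4.56 CPM with FGF2 and 6.55 and 8.66 CPM without FGF2 (log2 fold change -0.71 ± 0.24 SE, edgeR adjusted p = 0.011). That call was lost with DESeq2 (adjusted p = 0.19), without FGF2 replicate 2 (log2 fold change -0.69, adjusted p = 0.053) and without no FGF2 replicate 2 (-0.50, adjusted p = 0.27).

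Lamc1, the γ chain of nearly all laminins, measured 234 and 216 CPM with FGF2 and 138 and 142 CPM without FGF2, which was 1.60-fold higher (log2 fold change 0.68 ± 0.05 SE, edgeR adjusted p = 3.3e-38). It made up 98.1% of the γ level with FGF2 and 97.1% without FGF2. Lamc3, with 5 to 18 counts per library, was not tested. The summed level of the α chains was 16.7 ± 0.523 CPM per kb with FGF2 and 12.5 ± 0.772 without FGF2, that of the β chains was 26.4 ± 0.458 and 15.5 ± 0.148, and that of the γ chains was 27.7 ± 1.57 and 17.4 ± 0.188. All these sums were higher with FGF2, with ratios of 1.34, 1.70 and 1.59, and the α chains had the lowest sum of the 3 in every library. Within the α chains, Lama5 made up 68.5% ± 0.497 with FGF2 and 60.2% ± 1.79 without FGF2, and Lama1 made up 3.33% ± 0.674 and 9.44% ± 0.473.

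Fn1, which encodes fibronectin, measured 133 and 142 CPM with FGF2 and 77.7 and 66.2 CPM without FGF2. Both FGF2 libraries lay above both others, with a rise of 1.91-fold (log2 fold change 0.93 ± 0.07 SE, edgeR adjusted p = 1.3e-43). Itga5, Itgav and Itgb1, which are subunits of fibronectin receptors, rose in the same libraries, by 2.98-fold, 1.49-fold and 1.59-fold. Not all related subunits did. Among the other RGD-binding, α4 and α9 subunits, Itga9 was higher (log2 fold change 0.75). Itga8 (-0.20), Itga2b (0.55) and Itga4 (0.11) did not pass the test.

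Ranked by CPM per kb within the group, Itgb1 came first in both conditions, at 51.4 with FGF2 and 32.4 without FGF2. Vcam1 ranked 9th without FGF2, at 9.56 CPM per kb, and 2nd with FGF2, at 41.9. Icam1 moved from rank 16 at 2.44 CPM per kb to rank 6 at 23.3. Itga6 moved the other way, from rank 4 at 16.2 CPM per kb to rank 11 at 8.84, and Icam5 from rank 6 at 11.99 to rank 12 at 8.31. Lamc1 held rank 3 in both, at 27.2 with FGF2 and 16.9 without FGF2.

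The wider pathway was read from 3 lists of genes outside the group. Of 24 adaptors and kinases that join integrins to actin and signalling, 14 of 23 tested were higher (60.9%) and 4 lower (17.4%), with a median log2 fold change of 0.45. The share that was lower is near the 19.9% over all genes, of which 20.7% were higher. Parvb (β-parvin), which binds integrin-linked kinase, measured 97.5 and 103 CPM with FGF2 and 25.3 and 25.2 CPM without FGF2 (log2 fold change 1.99 ± 0.09 SE, edgeR adjusted p = 1.6e-111). Lims2 (PINCH2), a partner in the same complex, measured 14.6 and 13.4 CPM with FGF2 and 4.84 and 3.96 CPM without FGF2 (log2 fold change 1.67 ± 0.21 SE, edgeR adjusted p = 6.0e-14). The largest falls of the list were small, in Tln2, the talin of neurons and muscle (199 and 183 CPM against 245 and 243 CPM, log2 fold change -0.35), and in Actn1, an actin crosslinker (log2 fold change -0.29). Tln1, the other talin, named here after its values were seen, had a log2 fold change of 0.70.

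Of 12 basement membrane partners and laminin receptors that are not integrins, 8 were higher (66.7%, beside 20.7% of all genes) and 4 did not pass the test, with a median log2 fold change of 0.41. The largest rises were in Ntn4 (netrin-4), which binds laminin γ chains (50.3 and 55.7 CPM with FGF2 against 29.1 and 29.8 CPM, log2 fold change 0.85), and in Nid1 (nidogen-1), which links laminin to collagen IV (15.9 and 13.4 CPM against 8.26 and 9.40 CPM, log2 fold change 0.73). Of the other integrin ligands, 10 had a mean of at least 5 CPM, and of these 4 were higher and 2 lower (40.0% and 20.0%, beside 23.9% and 24.3% of all genes of that level), so the share that was lower is near that of all genes. Over all 15 ligands tested the counts were 5 and 3, which include Madcam1 and Vtn, tested only through the condition in which they are high. Ccn2 (connective tissue growth factor) measured 125 and 113 CPM with FGF2 and 19.5 and 18.6 CPM without FGF2 (log2 fold change 2.64 ± 0.09 SE, edgeR adjusted p = 3.7e-189). The thrombospondins were of opposite direction, with Thbs2 at 36.3 and 33.6 CPM against 6.93 and 10.2 CPM (log2 fold change 2.02) and Thbs1 at 29.9 and 28.8 CPM against 42.6 and 42.5 CPM (-0.54). Npnt (nephronectin), a ligand of α8β1, had a log2 fold change of -0.41.

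**Figure D4:**
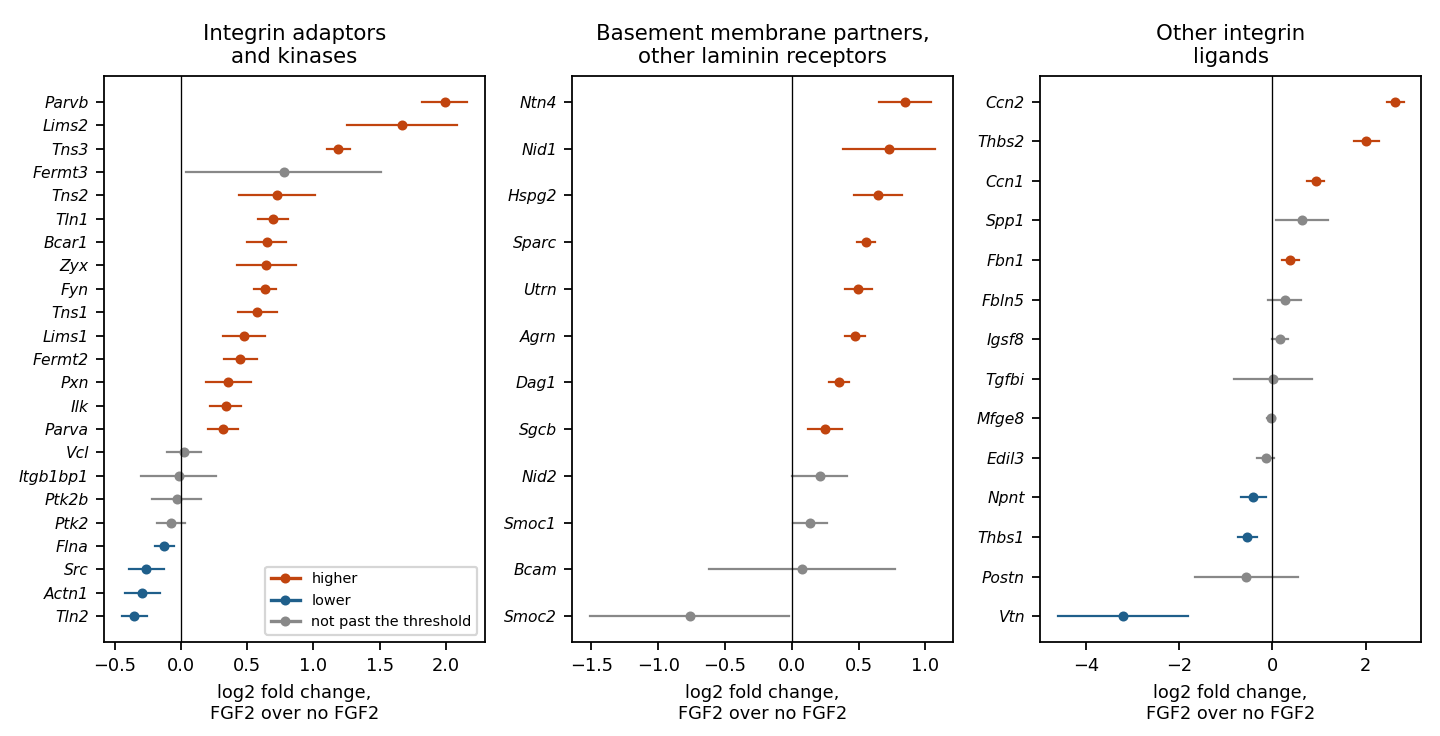
Log2 fold change (FGF2 over no FGF2, horizontal axes, which differ between panels) of the genes tested in 3 lists, with 95% intervals of the edgeR fit and colours for the call at an adjusted p under 0.05. The adaptor panel runs from Parvb at 1.99 to Tln2 at -0.35, the basement membrane partners that pass the test all lie right of 0, and Ccn2 at 2.64 and Thbs2 at 2.02 lead the ligands, where Madcam1 is left out because it is at 0 counts without FGF2.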

How the data were processed

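The cultures' total RNA was sequenced in 4 libraries. Per the paper and the submitters' processing notes, the authors aligned the reads to mm10 (HISAT2 2.1.0), removed alignments of low mapping quality (Samtools) and tallied reads on genes (HTSeq 0.11.2). The deposited values are raw counts, not normalized. The annotation release is not given in the sources used here, and 55240 of 55421 identifiers were matched to GENCODE M21. A mapping quality filter removes reads shared with near-identical copies, and 5 genes of the group shared 100 bases or more at 95% identity or more with a gene elsewhere (BLAST 2.17.0). The strand setting of the counting is not given, and from the values the strands were kept apart: of genes covered to at least 98% by a gene of the other strand, 161 of 494 had a count, against 4 of 692 covered by a gene of their own strand. Entries that name no gene (43.2% to 45.9% of read pairs in no feature and 1.47% to 1.76% ambiguous) were left out.

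Counts were tested in R 4.3.3 with edgeR 4.0.16 (quasi-likelihood), with TMM scaling (factors 0.993 to 1.01), the expression filter of edgeR and Benjamini-Hochberg adjustment over 17144 genes, with a threshold of 0.05. The fit was tested on simulated data. Replicates differed by more than sampling noise (chi-square per degree of freedom 2.28 with FGF2 and 1.76 without FGF2). The titles number the libraries B1 and B2, taken as replicates 1 and 2. Every gene of the group entered the counts, and 1 that passed the filter is not reported here by itself. Genes were given in full when past the threshold with a mean of at least 5 CPM, and of each pathway list the 2 largest rises and 2 largest falls past the threshold at that level were named. The genes, roles and lists were chosen with earlier results of these data known. As 12 alternatives, the scaling was changed to RLE, upper quartile or total counts, and the fit was repeated with no filter, at least 10 counts in every library, by DESeq2 1.42.0, by limma-voom (limma 3.58.1), with the replicate number as a block and with each library left out. The human samples are not used here.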

Additional observations from a re-analysis of the deposited data

How the results depend on the processing

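Of the 23 genes of the group that passed the test, 18 kept the call under all alternatives, Itgb7 kept it under those in which it was tested (it was not tested with at least 10 counts in every library), and 4 lost it under at least 1 (Itga9, Lama2, Lama3 and Lamb1). None of the 23 changed sign under any of the alternatives. DESeq2 called 2068 genes higher and 1939 lower over all genes, against 3541 and 3407, and 16 higher and 3 lower in the group, against 18 and 5. It gave no adjusted p for 11848 genes, Lamb3 among them. With 1 library left out, where the lone library is assumed to vary like the other condition, 2645 to 3145 genes were higher and 2558 to 3054 lower, and in the group 17 were higher and 4 lower each time. The log2 fold changes that turned sign with a library left out belonged to genes that had not passed the test, and ranged from -0.22 to 0.16 for Itga10, -0.23 to 0.056 for Itga3, -0.27 to 0.22 for Itga7, -0.47 to 0.54 for Itga4, -0.014 to 0.50 for Itgal and -0.42 to 0.00072 for Itgb4. The cause was not tested. With the replicate number as a block, 3478 genes were higher and 3338 lower, and 18 and 5 in the group. The same-numbered libraries did not deviate together (correlation 1.3e-05 over 17144 genes). With 2 libraries per condition, this cannot show whether they shared a culture or a preparation. Depth limits the 9 genes that were not tested, of which none had more than 18 counts in a library.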
